A study of Mus musculus with 4 samples.

Results

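The expression of the genes that write, maintain and remove DNA methylation was examined in female mouse embryonic stem cells (ESCs) treated with GSK-J4 and L-ascorbic acid (AA). The genes were taken by name, as 9 symbols looked up in the gene column of both deposited tables, and the list was drawn up with earlier results of these data known. Of the 9, 6 have a value: *Dnmt1*, *Dnmt3a*, *Dnmt3b*, *Dnmt3l*, *Tdg* and *Tet3*, out of 9779 genes with a value in all. *Tet1*, *Tet2* and *Uhrf1* were not analysed here. The cells were of the LF2 line, a female line of strain 129/J that was grown on feeder cells and passaged without them before treatment. All 4 groups received 24 hr of treatment: PBS+DMSO (the vehicles alone), PBS+GSK-J4 (10 μM GSK-J4, which enters cells and inhibits H3K27 demethylases of the JmjC class), AA+DMSO (50 μg/ml AA) and AA+GSK-J4 (both agents). The groups are called control cells, GSK-J4 alone, AA alone and both agents below. Each group is 1 RNA-Seq library with no replicate, so no test was run, no p-value is given, and every difference below is between single libraries of 1 cell line.

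Cytosine methylation in CpG is copied after replication by *Dnmt1* and laid down on unmethylated DNA by *Dnmt3a* and *Dnmt3b*, which *Dnmt3l*, a family member with no catalytic activity of its own, stimulates in germ cells and ESCs. The TET enzymes oxidise 5-methylcytosine to 5-hydroxymethylcytosine and further forms, using Fe(II) and α-ketoglutarate, and AA supports their activity. The thymine DNA glycosylase *Tdg* excises the most oxidised forms, and base excision repair restores cytosine. JmjC histone demethylases, the targets of GSK-J4, belong to the same class of α-ketoglutarate-dependent dioxygenases. The comparisons below ask how mRNA levels of this machinery differed with each agent, and they do not measure DNA methylation or enzyme activity.

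Levels are FPKM (mapped fragments scaled by exon length and by library size), added up for each gene from its coding sequence groups. A coding sequence group is the set of transcripts of a gene that encode 1 protein. Changes are log2 ratios of (FPKM + 1), which understate the change of weakly expressed genes, and a gene is called changed at 2-fold, a log2 ratio of at least 1 in size. In each contrast, genes reaching an FPKM of 1 in at least 1 of its libraries were compared. Summed FPKM was 360621 in control cells, 342327 with AA alone, 275575 with GSK-J4 alone and 271205 with both agents. The tables give no read numbers and library depth is therefore unknown. A search for the value of 1 read among low FPKM placed at most 20.4% of the genes searched on such steps, so relative depth was not resolved either. The median log2 ratio of all genes compared was -0.17 for GSK-J4 in the absence of AA and -0.16 in its presence, and in the absence of AA the median was 0.28 in the lowest of 10 bins of mean expression and -0.60 in the highest. Of the ESC markers, 8 of 9 have a value, and their summed FPKM lay between 1212 and 2189, with *Pou5f1* at 479.7 to 867 and *Nanog* at 90.9 to 162. Of 9 markers of extraembryonic endoderm, only *Sox7* has a value, at 0.697 to 1.61 FPKM. Of 12 markers of feeder fibroblasts, 6 have a value, with a summed FPKM of 42.1 in control cells and 40.1 with AA alone, and of 65.6 with GSK-J4 alone and 59.3 with both agents.

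*Dnmt3b* lies on chromosome 2 from 153649467 to 153687742, as the tables give it, on the plus strand. RefSeq places its start 18 bases from the edge of that locus. The 300 bases around the start (250 before, 50 after) are shown because *Dnmt3b* had the most negative log2 ratio of (FPKM + 1) of the 6 genes with GSK-J4, and those of *Tdg* because it is the other gene whose RefSeq start is close to the edge of the locus in the tables, at 36 bases. For the remaining 4 genes the RefSeq start lies 6996 to 28049 bases from that edge, so their promoters are not shown. The sequences are from RefSeq on GRCm38.p6, the build called mm10 in the submitters' processing notes, and run 5′ to 3′ on the plus strand. Capitals mark the GC box GGGCGG or its reverse complement CCGCCC.
*Dnmt3b*, chr2:153649199-153649498: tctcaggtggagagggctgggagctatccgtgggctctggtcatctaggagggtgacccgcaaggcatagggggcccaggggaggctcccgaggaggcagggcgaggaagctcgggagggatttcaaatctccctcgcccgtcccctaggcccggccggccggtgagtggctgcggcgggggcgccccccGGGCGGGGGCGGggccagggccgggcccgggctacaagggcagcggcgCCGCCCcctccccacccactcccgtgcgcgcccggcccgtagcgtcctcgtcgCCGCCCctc
*Tdg*, chr10:82629588-82629887: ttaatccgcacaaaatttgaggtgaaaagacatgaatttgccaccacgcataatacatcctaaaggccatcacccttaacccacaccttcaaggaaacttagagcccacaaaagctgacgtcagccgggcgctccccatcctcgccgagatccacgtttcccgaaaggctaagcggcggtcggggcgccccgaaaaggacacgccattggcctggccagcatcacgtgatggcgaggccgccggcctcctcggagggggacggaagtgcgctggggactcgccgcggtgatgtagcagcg
The *Dnmt3b* window holds 30 CpG and 4 GC boxes, and that of *Tdg* holds 26 CpG and no GC box. Over 27025 promoter windows of this length, the median is 7 CpG and 35.9% hold a GC box on either strand. CCAAT, found in 37.9% of windows, is absent from the *Dnmt3b* window and occurs once in that of *Tdg*. TATAAA, found in 14.2% of windows, is in neither. The E-box CACGTG, found in 7.24% of windows, is absent from the *Dnmt3b* window and occurs once in that of *Tdg*. These matches describe the letters of the windows only.

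The most negative log2 ratio of (FPKM + 1) with GSK-J4 was that of *Dnmt3b*, a de novo methyltransferase whose FPKM was above that of *Dnmt3a* in every library. The order depends on the measure: in the absence of AA, *Tet3* was at -3.80 and *Dnmt3b* at -2.14 with a pseudocount of 0.1, and *Dnmt3l* lost more FPKM (-41.9) than *Dnmt3b* (-37.3). Its FPKM was 48.2 in control cells, 10.9 with GSK-J4 alone, 39.9 with AA alone and 7.38 with both agents. Both libraries with GSK-J4 were far below both without it. FPKM itself fell 4.44-fold in the absence of AA and 5.41-fold in its presence. On the scale of FPKM + 1 used for the calls, the log2 ratios were -2.05 and -2.29. These comparisons share no library. Among 8972 genes compared in both, 0 other genes were as low as *Dnmt3b* in both at once. Of these genes, 1.84% were at least 2-fold lower in both comparisons. Genes in the same expression bin (10 bins of mean expression) had median log2 ratios of -0.35 in the absence of AA and -0.30 in its presence, and their 5th percentiles were -0.92 and -0.88. The call held under every scaling, filter and pseudocount tried and for the highest coding sequence group alone. Over these settings the log2 ratios ran from -2.42 to -1.68 in the absence of AA and from -2.58 to -1.86 in its presence. The lowest value of each range is that of the highest coding sequence group alone.

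**Figure D1:**
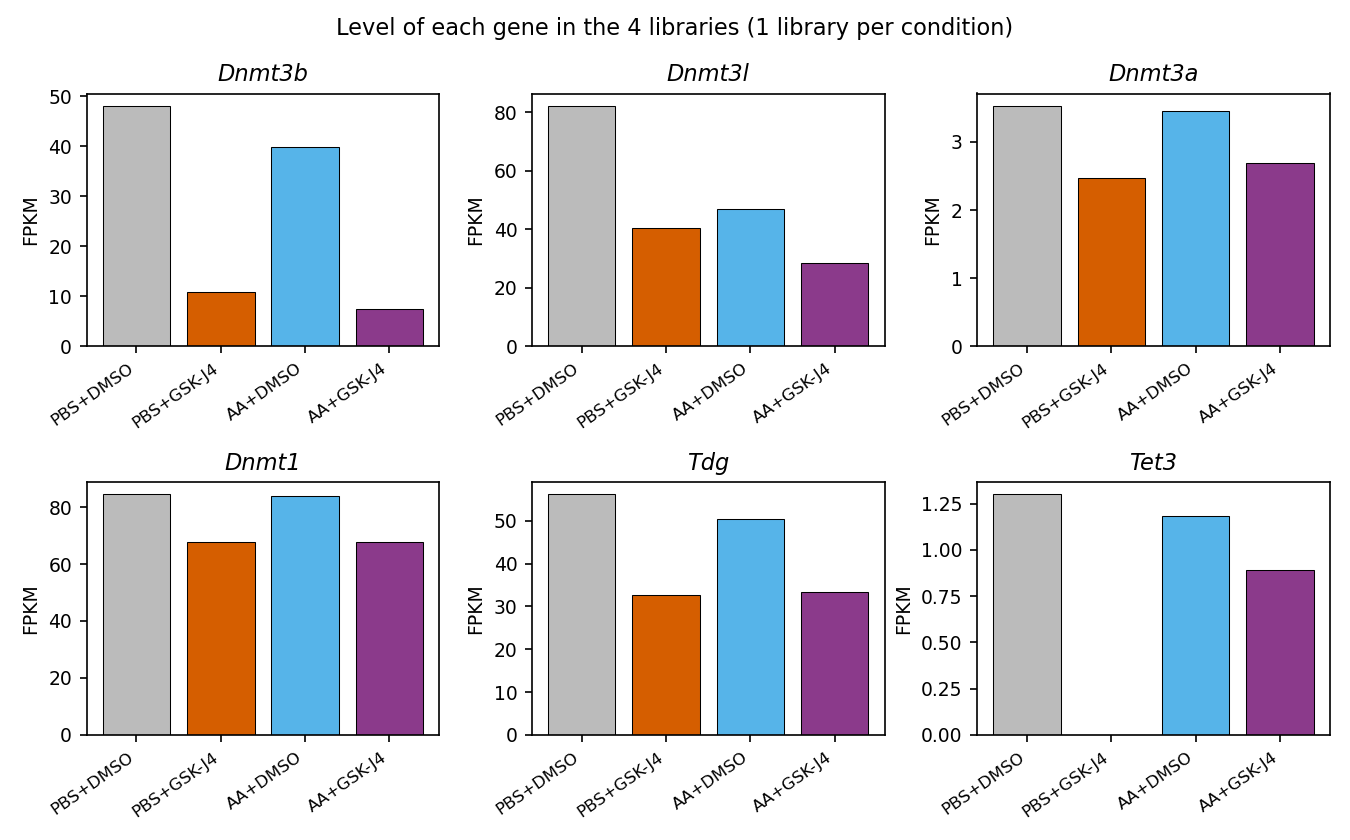
FPKM of each of the 6 genes in PBS+DMSO, PBS+GSK-J4, AA+DMSO and AA+GSK-J4, as bars from 0, with 1 library per bar and a separate scale for each gene. *Dnmt3b* is at 48.2 and 39.9 in the libraries without GSK-J4 and at 10.9 and 7.38 in those with it, *Dnmt3l* is also lower in AA+DMSO (47.1) than in PBS+DMSO (82.3), and the *Tet3* bar in PBS+GSK-J4 is too small to be seen.

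*Dnmt3b* has 4 coding sequence groups, which the tables do not name as isoforms and which are numbered here by their level in control cells. The first was at 26.5 FPKM in control cells and 4.14 with GSK-J4 alone, and at 24.0 with AA alone and 3.17 with both agents. The second was at 19.7 and 4.14 FPKM in the absence of AA and at 14.5 and 4.01 in its presence. Both were more than 2-fold lower with GSK-J4 in both comparisons. The third was at 1.93 and 0.692 FPKM in the absence of AA, at 1.42 with AA alone, and is listed at 0 with both agents. The fourth is listed at 0 in control cells and with AA alone, at 1.88 with GSK-J4 alone and at 0.202 with both agents. Reads shared by the groups were divided between them by Cufflinks2, so the split of a gene is less certain than its sum. The first group alone gave log2 ratios of -2.42 in the absence of AA and -2.58 in its presence.

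**Figure D2:**
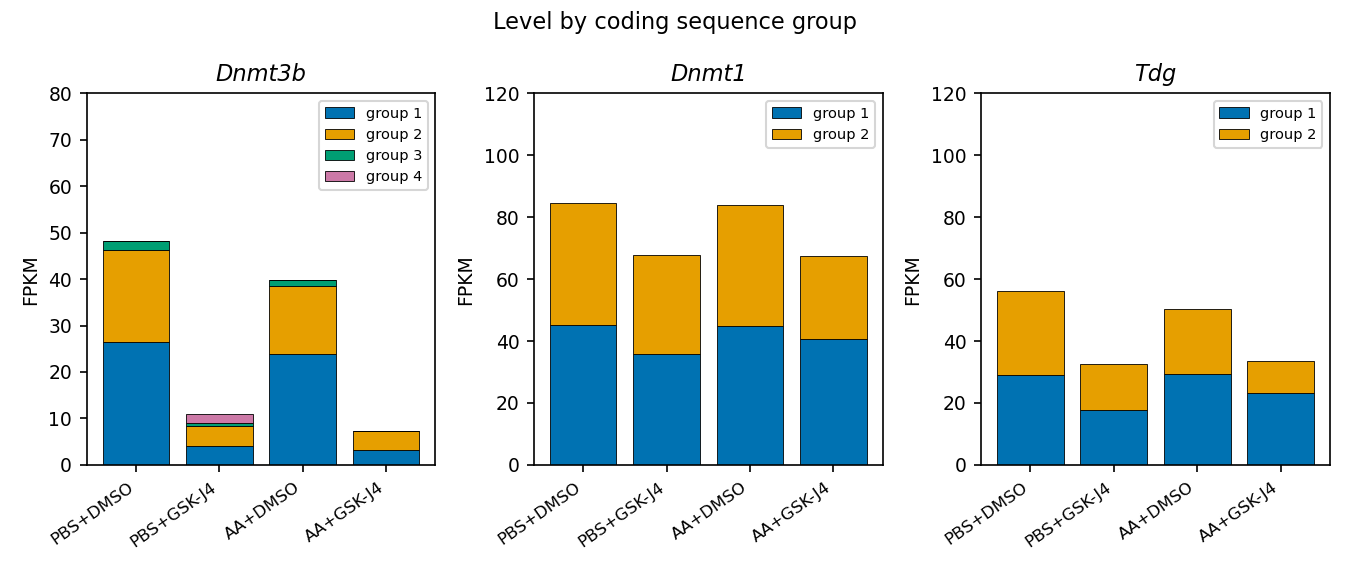
FPKM of each coding sequence group of *Dnmt3b*, *Dnmt1* and *Tdg*, stacked from 0, in the 4 libraries. Groups are numbered within a gene by their level in control cells. The first and second *Dnmt3b* groups (26.5 and 19.7 FPKM in control cells) are both low with GSK-J4, and the share of the first *Tdg* group is highest with both agents, at 69.4%.

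*Dnmt3l*, on chromosome 10 from 78049782 to 78063910, was lower with either agent. Its FPKM was 82.3 in control cells, 40.4 with GSK-J4 alone, 47.1 with AA alone and 28.4 with both agents. The level was highest with the vehicles alone and lowest with both agents. GSK-J4 gave a log2 ratio of -1.01 in the absence of AA, just past the 2-fold threshold, and of -0.71 in its presence. Genes of the same expression bin had medians of -0.60 and -0.41, and 5th percentiles of -1.15 and -0.93. Both *Dnmt3l* values lay above these percentiles, within the spread of their bin. The call in the absence of AA was lost when the ratios were centred on the median of all genes (-0.83), when libraries were scaled by the upper quartile (-0.73) or to the same total (-0.63), with a pseudocount of 5 (-0.94), and when the median of its expression bin was subtracted (-0.41). It was lower with GSK-J4 in each of these settings.

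Of the other methyltransferases, *Dnmt1*, which maintains methylation, had the highest level of the 6 genes in every library. It lies on chromosome 9 from 20906268 to 20952892. Its FPKM was 84.6 in control cells and 67.8 with GSK-J4 alone, and 83.9 with AA alone and 67.6 with both agents. The log2 ratios for GSK-J4 were -0.32 and -0.31, below the 2-fold threshold. Their direction depends on the scaling: with libraries scaled to the same total they were 0.07 and 0.02, and relative to their expression bin 0.28 and 0.23. *Dnmt1* has 2 coding sequence groups, which held 53.6% and 46.4% of its FPKM in control cells. *Dnmt3a*, on chromosome 12 from 3835029 to 3920942, was weakly expressed. Its FPKM was 3.53 in control cells, 2.48 with GSK-J4 alone, 3.45 with AA alone and 2.69 with both agents. The log2 ratios of -0.38 in the absence of AA and -0.27 in its presence did not reach the threshold.

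Because FPKM is per length, the levels of the 4 *Dnmt* genes can be set beside each other. *Dnmt3b* made up 22.0% of their summed FPKM in control cells and 22.9% with AA alone. With GSK-J4 its share was 8.93% in the absence of AA and 6.96% in its presence. The share of *Dnmt1* was 38.7% in control cells and 48.1% with AA alone, and 55.8% with GSK-J4 alone and 63.7% with both agents. In both libraries with GSK-J4 the maintenance enzyme thus made up more of the summed FPKM than in either without it. *Dnmt1* exceeded *Dnmt3b* 1.76-fold in control cells and 2.10-fold with AA alone, against 6.24-fold with GSK-J4 alone and 9.16-fold with both agents. These ratios within a library do not depend on how libraries are scaled.

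Of the genes that remove methylation, *Tdg* (chromosome 10, 82629802 to 82650445) had an FPKM of 56.3 in control cells, 32.7 with GSK-J4 alone, 50.5 with AA alone and 33.4 with both agents. Both libraries with GSK-J4 were lower than both without it. The log2 ratios were -0.77 in the absence of AA and -0.58 in its presence, short of the 2-fold threshold, and genes of the same expression bin had medians of -0.47 and -0.41. The first of its 2 coding sequence groups held 51.6% of its FPKM in control cells, 54.6% with GSK-J4 alone, 58.1% with AA alone and 69.4% with both agents. *Tet3* (chromosome 6, 83362381 to 83454803, minus strand) was the weakest of the 6 genes. It was at 1.30 FPKM in control cells, 1.18 with AA alone and 0.891 with both agents, and at 0.000548 with GSK-J4 alone. That last value makes *Tet3* pass the 2-fold threshold in the absence of AA, with a log2 ratio of -1.20, while the ratio in its presence was -0.21. Such a value is not particular to *Tet3*, as 124 genes lie below 0.001 FPKM in a library and reach 1 in another, and no fold is given for it.

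In all, 3 of the 6 genes were at least 2-fold lower with GSK-J4 in the absence of AA, and 2 of 5 when *Tet3* is left aside, where 3.5% of 9196 genes were lower. In the presence of AA only *Dnmt3b* of the 6 was, where 3.38% of 9139 genes were lower. No gene of the 6 was 2-fold higher in either comparison, where 4.96% and 4.13% of genes were. The median log2 ratio over the 6 was -0.89 in the absence of AA and -0.44 in its presence, against -0.17 and -0.16 over all genes. All 6 genes were below 0 in both comparisons, as were 56.1% of all genes. At 1.5-fold, 4 of the 6 were lower in the absence of AA and 2 in its presence, where 19.3% and 17.8% of all genes were. The ESC markers had median log2 ratios of -0.65 and -0.67 for GSK-J4 and the feeder markers of 0.39 and 0.41. For all genes, medians were -0.60 and -0.54 in the highest of the 10 expression bins, where *Pou5f1* and *Nanog* lie. In bin 3, where *Dnmt3a* lies, they were 0.07 and 0.04. Of the 6 feeder markers, 5 were above 0 in each comparison, and *Tagln* (14.4 FPKM in control cells and 26.8 with GSK-J4 alone) and *Acta2* (12.9 and 21.4) had the highest levels. *Thy1* was below 0 in the absence of AA (2.79 and 1.82 FPKM, -0.43) and *Col1a2* in its presence (-0.18), both named after their values were seen. The part of these markers in the differences was not tested. Fewer cells of a type and less RNA per cell cannot be told apart in these bulk samples.

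**Figure D3:**
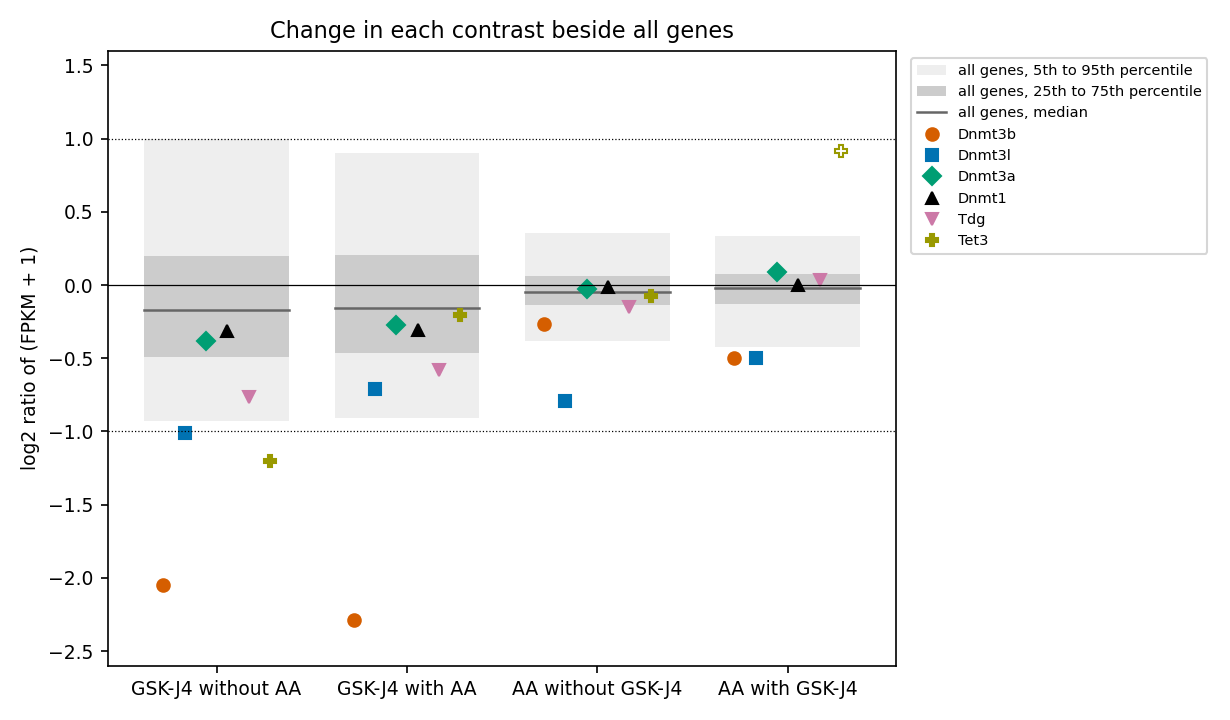
Log2 ratio of (FPKM + 1) of each of the 6 genes (symbols) in the 4 contrasts, over the spread of all genes compared: the pale band runs from the 5th to the 95th percentile, the dark band from the 25th to the 75th, and the line is the median. Dotted lines mark 2-fold, and an open symbol marks a gene under an FPKM of 1 in both libraries. *Dnmt3b* lies at -2.05 and -2.29 for GSK-J4, below the pale band. *Dnmt3l* (-1.01) and *Tet3* (-1.20) also lie below it for GSK-J4 in the absence of AA. Among genes of its own expression bin *Dnmt3l* is above the 5th percentile there (-1.15). For AA, *Dnmt3l* lies below it at -0.79 and -0.50, and so does *Dnmt3b* with GSK-J4, at -0.50.

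**Figure D4:**
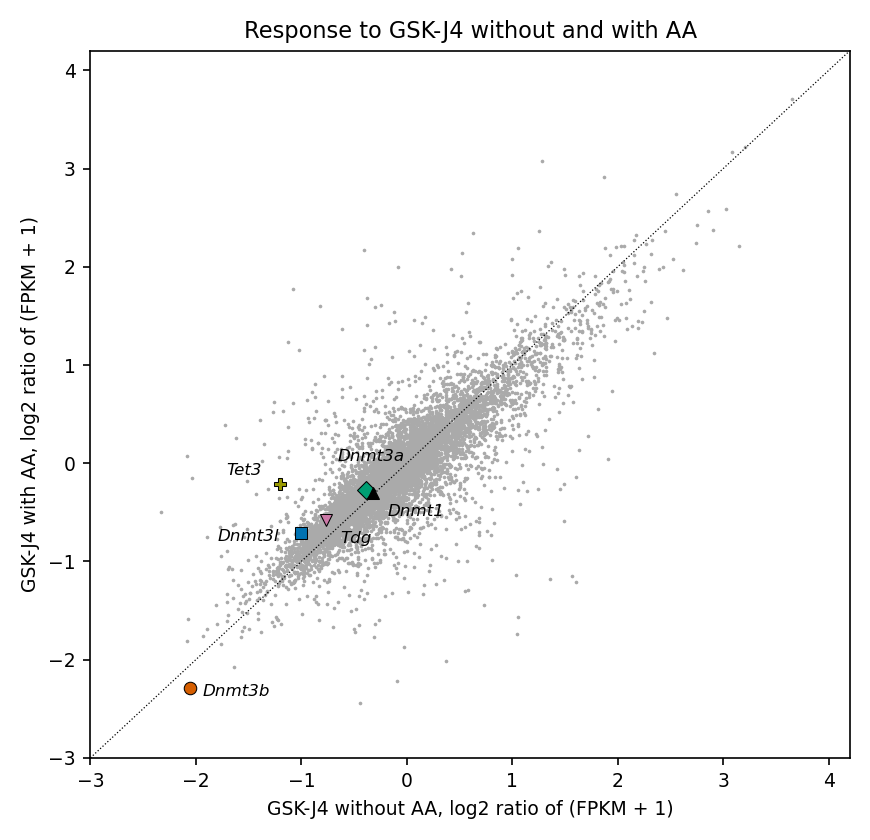
Log2 ratio of (FPKM + 1) for GSK-J4 in the absence of AA (horizontal) against that in its presence (vertical), for the 8972 genes compared in both (grey points), with the 6 genes marked and the line of equality dotted. *Dnmt3b*, at -2.05 and -2.29, has no grey point below and to the left of it.

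The responses to GSK-J4 in the absence and in the presence of AA were set side by side. The log2 ratio in the presence of AA minus that in its absence was 0.01 for *Dnmt1*, 0.11 for *Dnmt3a*, 0.19 for *Tdg*, 0.30 for *Dnmt3l* and -0.24 for *Dnmt3b*. It was 0.99 for *Tet3*, a value that rests on its level near 0 with GSK-J4 alone. Over genes in the same expression bin, the median size of this difference was 0.09 for *Dnmt1*, *Tdg*, *Dnmt3l* and *Dnmt3b*, 0.19 for *Dnmt3a* and 0.21 for *Tet3*. The differences of *Tdg*, *Dnmt3l*, *Dnmt3b* and *Tet3* were larger than that median, with *Dnmt3b* alone below 0. The direction for *Dnmt3b* was not shared by its main coding sequence groups. The ratio of the first was more negative in the presence of AA (-2.42 without it, -2.58 with it). That of the second was less negative (-2.01 without it, -1.63 with it). These differences were not tested.

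AA, the TET cofactor, was examined in DMSO and in GSK-J4. These contrasts set levels of 1 table beside those of the other, and whether the tables were scaled together is not given in the sources used here. The median log2 ratio of all genes was -0.05 without GSK-J4 and -0.02 with it. None of the genes compared, 6 without GSK-J4 and 5 with it, was changed 2-fold by AA. Of all genes, 0.735% of 8843 were lower and 0.565% were higher without GSK-J4, and 0.599% and 0.512% of 9180 genes with it. At 1.5-fold, *Dnmt3l* alone was lower without GSK-J4 and none of 5 with it, where 2.22% and 2.54% of all genes were. *Dnmt3l* had the most negative value without GSK-J4, a log2 ratio of (FPKM + 1) of -0.79 without GSK-J4, where FPKM itself was 1.75-fold lower (82.3 to 47.1), and of -0.50 with it, where FPKM was 1.42-fold lower (40.4 to 28.4). Of 8660 genes compared in both, 29 others were as low in both. In the same expression bin the 5th percentiles were -0.20 and -0.19.

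*Dnmt3b* was also lower with added AA, by a log2 ratio of -0.27 without GSK-J4 (48.2 to 39.9 FPKM) and of -0.50 with it (10.9 to 7.38 FPKM), and 94 other genes were as low in both. *Dnmt3b* and *Dnmt3l* kept this direction under each scaling tried. By coding sequence group, the AA ratios of *Dnmt3b* were -0.14 and -0.30 for the first and -0.42 and -0.036 for the second. With GSK-J4 the second was thus nearly level, at 4.14 and 4.01 FPKM. There the third went from 0.692 to 0 FPKM and the fourth from 1.88 to 0.202, so the summed fall rests in part on these weak groups. With both agents against the vehicles alone, the FPKM of *Dnmt3b* was 6.53-fold lower and that of *Dnmt3l* 2.90-fold lower. *Dnmt1* gave ratios of -0.012 and -0.0031 for AA, *Tdg* of -0.15 and 0.033 and *Dnmt3a* of -0.025 and 0.086. The sign of the *Dnmt1* ratios, and of the first of *Dnmt3a*, changes when the ratios are centred on the median of all genes, and that of the first of *Tdg* changes for its highest coding sequence group alone (0.014). *Tet3* gave -0.08 without GSK-J4, and with GSK-J4 its FPKM was under 1 in both libraries, so it was not compared. The median over the genes compared was -0.11 for 6 genes and -0.0031 for 5, against -0.05 and -0.02 over all genes.

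The gene profiles most like that of *Dnmt3b* over the 4 libraries were those of *Fgf17*, *Hnrnpdl* and *Lin28a*, at Euclidean distances of 0.408, 0.421 and 0.519 between centred log2(FPKM + 1) values, among 5999 genes with a mean FPKM of at least 5. *Fgf17*, a fibroblast growth factor, was at 15.8 FPKM in control cells, 3.94 with GSK-J4 alone, 13.7 with AA alone and 3.12 with both agents. *Hnrnpdl*, an RNA-binding protein, was at 25.5, 5.26, 21.1 and 5.28 FPKM in the same order. *Lin28a*, an RNA-binding protein of ESCs, was at 92.4, 24.2, 79.6 and 24.1 FPKM. *Otx2*, a transcription factor of the formative and primed epiblast, where *Dnmt3b* is also high, was at 16.6 FPKM in control cells, 4.40 with GSK-J4 alone, 12.2 with AA alone and 3.93 with both agents, log2 ratios of -1.70 and -1.42 for GSK-J4. Of 7 formative and primed markers, a list that holds *Dnmt3a* and *Dnmt3b* themselves, 4 were compared in the absence of AA and 3 in its presence. *Otx2* and *Dnmt3b* were the 2 that fell 2-fold in each, where 3.5% and 3.38% of all genes did. Of the others compared, *Lef1* was at -0.74 in the absence of AA, and *Dnmt3a* was at -0.38 and -0.27.

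The wider pathway was described by lists. Their counts stand beside 3.5% (in the absence of AA) and 3.38% (in its presence) of all genes 2-fold lower with GSK-J4 and 4.96% and 4.13% 2-fold higher, and their medians beside -0.17 and -0.16 over all genes. Of 18 genes listed as partners and regulators of methylation maintenance and recruitment, 17 were compared in the absence of AA and 16 in its presence. At least 2-fold lower with GSK-J4 were 4 and 3 of them, 0 were 2-fold higher, and their median log2 ratios were -0.83 and -0.77. In the highest of the 10 expression bins, which holds *Trim28* and *Pcna*, the medians of all genes were -0.60 and -0.54. *Trim28*, the corepressor that holds methylation at imprints and retroelements, fell from 682 to 269.6 FPKM in the absence of AA and from 608 to 264 in its presence. *Dppa3*, which protects methylation in the early embryo, fell from 35.5 to 13.2 FPKM and from 39.3 to 14.3. *Pcna*, the replication clamp that *Dnmt1* binds, was at 161 and 90.1 FPKM in the absence of AA and at 154 and 92.5 in its presence.

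Of 18 genes of base excision repair and deamination, 15 were compared, and 1 was 2-fold lower in the absence of AA, while in its presence 1 was lower and 1 higher. These counts of 1 in 15 are near the shares of all genes (3.5% lower, and 3.38% lower and 4.13% higher). *Apex1*, the endonuclease that cuts the abasic site left by a glycosylase, fell from 99.3 to 42.4 FPKM in the absence of AA and from 94.03 to 39.9 in its presence, log2 ratios of -1.21 and -1.22. *Neil2*, a glycosylase, was the gene past the threshold only in the presence of AA, from 2.42 to 6.92 FPKM, and was named after its value was seen. It was at 2.44 and 5.54 FPKM in the absence of AA, a log2 ratio of 0.93. *Parp1*, which binds DNA breaks, was at 193 and 115 FPKM in the absence of AA and at 194 and 119 in its presence. The medians were -0.18 and 0.21.

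Of 17 genes of the methyl donor cycle, 16 were compared, with 3 at least 2-fold lower in the absence of AA (3.5% of all genes) and 1 in its presence (3.38%), and 0 higher. *Mat2a*, which makes S-adenosylmethionine, the donor for the *Dnmt* enzymes, fell from 91.8 to 29.6 FPKM in the absence of AA and from 78.3 to 32.5 in its presence, log2 ratios of -1.60 and -1.24. *Ahcy*, which clears S-adenosylhomocysteine, was at 328 and 217 FPKM in the absence of AA and at 293 and 199.6 in its presence. *Tdh*, which feeds the cycle from threonine in mouse ESCs, was at 166, 138, 204 and 149 FPKM in the order used below for *Idh1*. The median log2 ratios of the list were -0.52 and -0.50. Of 14 TET partners and regulators, 10 were compared and 0 changed 2-fold in either comparison, with *Idh1*, which makes α-ketoglutarate, at 47.8, 48.9, 50.3 and 51.7 FPKM in control cells, GSK-J4 alone, AA alone and both agents. The medians of that list were -0.56 and -0.47. Of 7 methyl-CpG readers, 5 were compared, and *Mbd3* alone passed 2-fold, falling from 58.7 to 26.1 FPKM in the absence of AA, while it was at 41.4 and 32.5 in its presence. *Zbtb33*, which encodes Kaiso, was at 9.76 and 10.8 FPKM in the absence of AA and at 8.02 and 10.7 with it. The medians were -0.05 and 0.07.

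Of 8 genes of ascorbate transport and recycling, 7 were compared, and *Gsto1*, an omega-class glutathione transferase that can reduce dehydroascorbate, rose with GSK-J4 from 11.9 to 30.8 FPKM in the absence of AA and from 11.2 to 28.2 in its presence. The medians were 0.04 and 0.02. *Slc2a1*, the GLUT1 transporter, which carries glucose and dehydroascorbate, was at 182 FPKM in control cells and 181 with GSK-J4 alone, and at 121 with AA alone and 119 with both agents. The log2 ratios for AA were -0.58 and -0.60, short of 2-fold. *Slc2a3*, the GLUT3 transporter, was at 294, 320.1, 252 and 256 FPKM in the order used for *Idh1*. Of 20 genes listed as germline genes silenced by promoter methylation, 14 were compared. Their methylation was not measured here, and some were expressed in control cells, such as *Tex19.1* (36.0 FPKM) and *Hormad1* (8.91). With GSK-J4, 2 of them rose 2-fold in each comparison, where 4.96% and 4.13% of all genes did. In the absence of AA 10 were above 0 and 4 below it, and in its presence 9 and 5. The list medians were 0.21 and 0.14. Weakly expressed genes as a whole also had medians above 0. These were 0.28 and 0.24 in the lowest of the 10 expression bins, and 0.07 and 0.04 in bin 3, where *Dnmt3a* lies. The part of expression level in the list medians was not tested. *Mael*, named after its values were seen, had the most negative log2 ratios of the list, -0.41 and -0.56. *Taf7l*, a germ cell TFIID subunit, rose from 2.07 to 5.33 FPKM in the absence of AA and from 1.46 to 7.17 in its presence. *Piwil2*, a piRNA-binding protein, is listed near 0 in the libraries without GSK-J4, at 0.00686 FPKM in control cells, and was at 1.70 with GSK-J4 alone and 1.11 with both agents. It was compared only through its GSK-J4 libraries, and without it 1 of 13 genes, *Taf7l*, passed 2-fold in each comparison. *Hormad1*, a meiotic chromosome protein, was at 8.91, 15.9, 8.88 and 16.6 FPKM in the order used for *Idh1*, and *Tex19.1*, which restrains retrotransposons in germ cells, at 36.0, 41.6, 34.4 and 40.1. For AA, 11 genes of this list were compared without GSK-J4 and 14 with it, with 6 above and 5 below 0 and with 6 above and 8 below 0, and 0 changed 2-fold. In none of these 7 lists did a gene change 2-fold with AA in either contrast. Of all genes, 0.735% were lower and 0.565% higher without GSK-J4, and 0.599% and 0.512% with it. A count of 0 is near these shares.

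**Figure D5:**
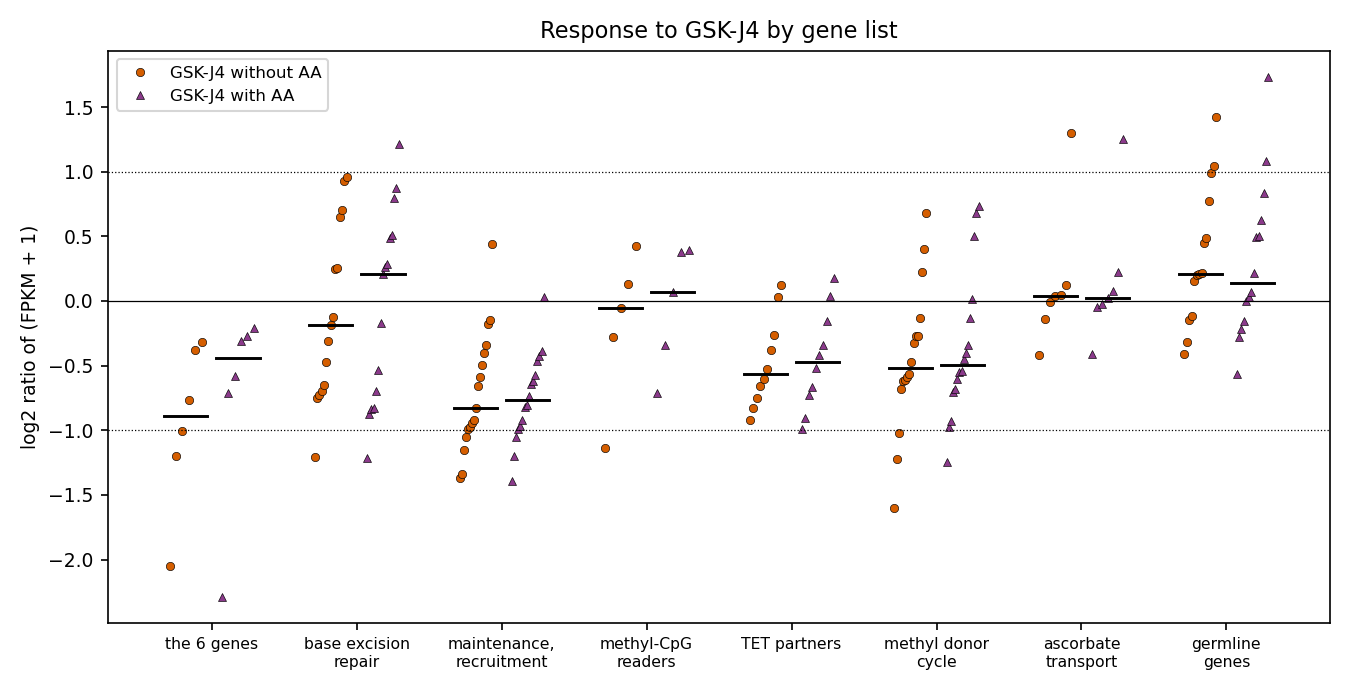
Log2 ratio of (FPKM + 1) for GSK-J4 in the absence of AA (circles) and in its presence (triangles) of each gene compared in the 6 genes and in 7 lists of the DNA methylation pathway. Each symbol is 1 gene, bars are list medians and dotted lines mark 2-fold. The list of maintenance and recruitment genes has medians of -0.83 and -0.77, and that of germline genes has medians of 0.21 and 0.14. Medians of all genes were 0.28 and 0.24 in the lowest of 10 expression bins and -0.60 and -0.54 in the highest.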

How the data were processed

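RNA from 4 conditions was sequenced by the authors as single-end reads, 1 library each. Per the labels and the paper's methods, the authors removed duplicates, aligned with TopHat2 to mm10 and obtained FPKM with Cufflinks2 through Maser. The deposited FPKM columns are headed as log10 but hold linear values. How libraries were scaled to each other, and whether reads were counted by strand, is not given in the sources used here. Opposite-strand genes overlap *Tet3*, *Dnmt3a*, *Dnmt3b*, *Dnmt3l* and *Tdg* in GENCODE M21. The tables also hold the authors' fold changes, p-values and q-values, which were not used.

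FPKM were summed per gene over 11033 coding sequence groups. The 157 genes for which the tables mark an estimate as failed were dropped. Log2 ratios used a pseudocount of 1, a minimum FPKM of 1 in at least 1 library and a 2-fold threshold. With 1 library per condition there was no test. The genes and lists were chosen with earlier results of these data known. Named list genes were those changed 2-fold in both contrasts of an agent, or among the 2 with the highest mean FPKM; others are marked. The genes most like a profile were sought for the gene with the largest range. The read-step search took ratios within 0.001 (natural log) of a ratio of small whole numbers. Also tried were a pseudocount of 0.1 or of 5, removal of the filter, a minimum FPKM of 5, rescalings (median, upper quartile, total, expression bin), a 1.5-fold threshold and the highest coding sequence group alone. The code for fold calls and read steps was run on simulated data with planted values. This checks the code and not the calls in these libraries. Python 3.11.15, numpy 2.4.6, pandas 2.3.3 and matplotlib 3.10.9 were used.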

Additional observations from a re-analysis of the deposited data

Results flagged for a closer look

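The contrast of AA in DMSO and that in GSK-J4 had opposite signs for *Tdg* and *Dnmt3a*. For *Tdg* the log2 ratios were -0.15 without GSK-J4 and 0.033 with it, and for *Dnmt3a* they were -0.025 and 0.086. The sign of the first *Tdg* value changed for its highest coding sequence group alone (0.014), and that of the first *Dnmt3a* value when centred on the median of all genes (0.022), by the upper quartile (0.015) and at the same total (0.032), so that both signs were then the same. Each value comes from a single pair of libraries, all are far below 2-fold, and the differences were not tested.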

How the results depend on the processing

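*Dnmt3b* passed 2-fold for GSK-J4 in both comparisons under all 9 alternatives that kept the 2-fold threshold. Median log2 ratios over the 6 genes kept their sign for GSK-J4 but moved. Without AA (-0.89) the median was -0.52 with a pseudocount of 5, -0.71 centred, -0.61 by the upper quartile, -0.51 at the same total, -0.43 relative to the expression bin and -0.77 without *Tet3*, an alternative chosen after the data were seen. With AA (-0.44) it was -0.64 at an FPKM of at least 5, -0.29 centred, -0.21 by the upper quartile, -0.15 at the same total, -0.30 relative to the expression bin, -0.30 for the highest coding sequence group and -0.58 without *Tet3*. For AA with GSK-J4 it was -0.25 at an FPKM of at least 5, where *Dnmt3a* and *Tet3* drop out. The count of genes 2-fold lower with GSK-J4 without AA fell from 3 to 1 with a pseudocount of 5. It was 2 at an FPKM of at least 5, where *Tet3* drops out. Under each rescaling (centred, upper quartile, same total, expression bin) it was also 2. There *Dnmt3l* was lost, and *Dnmt3b* and *Tet3*, with its value near 0, remained. A 1.5-fold threshold gave 2 lower genes for GSK-J4 with AA and 1 for AA without GSK-J4. Scaling to the same total made *Tet3*, from its value near 0, 1 gene 2-fold higher for AA with GSK-J4. Without *Piwil2*, also chosen after the data were seen, the count of germline genes 2-fold higher with GSK-J4 was 1 in place of 2 in each comparison. Relative to the median of all genes for GSK-J4 without AA (-0.17), the scalings gave 0.07 (upper quartile) and 0.17 (same total). Unless the setting itself shows it, the cause was not tested. No paired analysis was run, with 1 library per condition. A fit over the 2 pairs of libraries with and without GSK-J4 was not run. Library depth is unknown.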
